A study of Mus musculus with 9 samples.

Results

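Wnk1 and Mapt are each read by 3 probe sets on the array, and in both genes the probe sets did not move together in ventricles of mice with a dominant negative phosphoinositide 3-kinase (PI3K). A probe set is a group of short oligonucleotides designed from 1 sequence record, and a gene with several probe sets is measured several times on the same array. The 6 probe sets described here are all those that the annotation of the array platform gives to either gene, of 12488 in the deposited table. All 6 lay above the lower limit set on intensities on every array and were tested, out of 10645 tested. The genes were chosen by their measured dnPI3K values, because 2 probe sets of each were low on the dominant negative arrays while the remaining one was not. That pattern is therefore only described below. Where calls on it are counted, the choice of the genes had fixed them, and they are no support for it.

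Ventricle RNA of 9 mice was measured on 9 single-colour oligonucleotide arrays, 1 per animal, in groups of 3. The caPI3K mice carried a transgene for a constitutively active PI3K, with hearts 20% larger than in non-transgenic mice per the labels. The dnPI3K mice carried a dominant negative form, with hearts 17% smaller, and the NTG mice carried no transgene and served as controls for both. Strain, age, sex and the promoter of the transgenes are not given in the sources used here. In the published mice of this description, a promoter of the adult cardiac alpha-myosin heavy chain gene restricts the transgene to heart muscle cells. Nothing in the labels says whether animals of a group shared a litter, and the p-values measure only the spread between these animals.

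Wnk1 encodes a serine/threonine kinase that senses cell volume and chloride. It phosphorylates the kinases SPAK and OSR1 (genes Stk39 and Oxsr1), which in turn control the sodium, potassium and chloride cotransporters of the SLC12 family, and it is itself a substrate of Akt, a kinase that acts below PI3K. The gene makes several transcripts, among them a kidney form that starts at its own promoter and lacks most of the kinase domain, and forms with an extra exon in nervous tissue. Mapt encodes tau, which binds along microtubules and is best known from axons. Its transcript is spliced into forms that differ in the amino-terminal inserts and in the number of microtubule-binding repeats. A RefSeq gene table (assembly GRCm38.p6) lists 22 transcripts for Wnk1, 5 of them curated and 17 predicted, and 10 for Mapt, 5 curated and 5 predicted.

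The RefSeq table of promoter windows holds 1 window for Wnk1, shown because Wnk1 is known for transcripts that start at different promoters and the table gives this one. It spans 250 bases before to 50 bases after the annotated gene start, on the minus strand at chr6:120038606-120038905 in GRCm38.p6, with the sequence GGGCGG and its reverse complement CCGCCC in capitals.
Wnk1 promoter: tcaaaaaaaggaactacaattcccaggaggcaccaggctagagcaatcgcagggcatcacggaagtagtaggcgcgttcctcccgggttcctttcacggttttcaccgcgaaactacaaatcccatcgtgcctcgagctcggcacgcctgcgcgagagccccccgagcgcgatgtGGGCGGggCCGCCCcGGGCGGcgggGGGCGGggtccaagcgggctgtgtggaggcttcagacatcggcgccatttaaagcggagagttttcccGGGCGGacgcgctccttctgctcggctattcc
The motif, a GC box, was searched on both strands and occurs 5 times in this window, which has a GC content of 63.7%. Of the 32851 windows of the same length in the table, 35.7% hold the motif at least once and 2.71% hold it 5 times or more, and the median GC content is 52.7%. The window says nothing of which start was used in these hearts, and the array does not show it.

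The 3 probe sets of Wnk1 were designed from 3 different GenBank records. Probe set 160739_at read 1538, 1050 and 943 on the NTG arrays, 1928, 1999 and 1170 on the caPI3K arrays and 244, 244 and 269 on the dnPI3K arrays (normalized intensity, replicates 1 to 3 in order). The dnPI3K arrays lay far below all others and close to each other, and the other groups overlapped. Probe set 161270_i_at read 919, 605 and 874 on NTG arrays, 1150, 1222 and 791 on caPI3K arrays and 188, 133 and 131 on dnPI3K arrays. Its suffix marks a set with fewer oligonucleotides than usual, by the manufacturer's convention, and its order of groups was that of the first probe set. Probe set 94003_at read 5222, 4081 and 5301 on NTG arrays, 6065, 5814 and 5238 on caPI3K arrays and 4453, 5026 and 4364 on dnPI3K arrays. Here the dnPI3K arrays lay within the range of the NTG arrays.

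For Wnk1 the order of group means was caPI3K, NTG, dnPI3K on each probe set. On 160739_at the means were 1699 ± 460, 1177 ± 317 and 252 ± 14.5 in that order (SD, n = 3 each), a dnPI3K mean 2.19 ± 0.225 (SE) below NTG on the log2 scale, or 4.56-fold lower. On 161270_i_at they were 1054 ± 231, 799 ± 170 and 151 ± 32.4, a log2 difference of -2.40 ± 0.230 between dnPI3K and NTG, or 5.28-fold lower. On 94003_at they were 5706 ± 424, 4868 ± 682 and 4614 ± 360, with a log2 difference of -0.07 ± 0.114. The last pair of means differed by less than 1 SD, while the falls on the other 2 probe sets were many times the spread within groups. Among all 10645 probe sets tested, 10 had a dnPI3K minus NTG difference as low as that of 160739_at or lower, and 8 as low as that of 161270_i_at or lower.

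**Figure D1:**
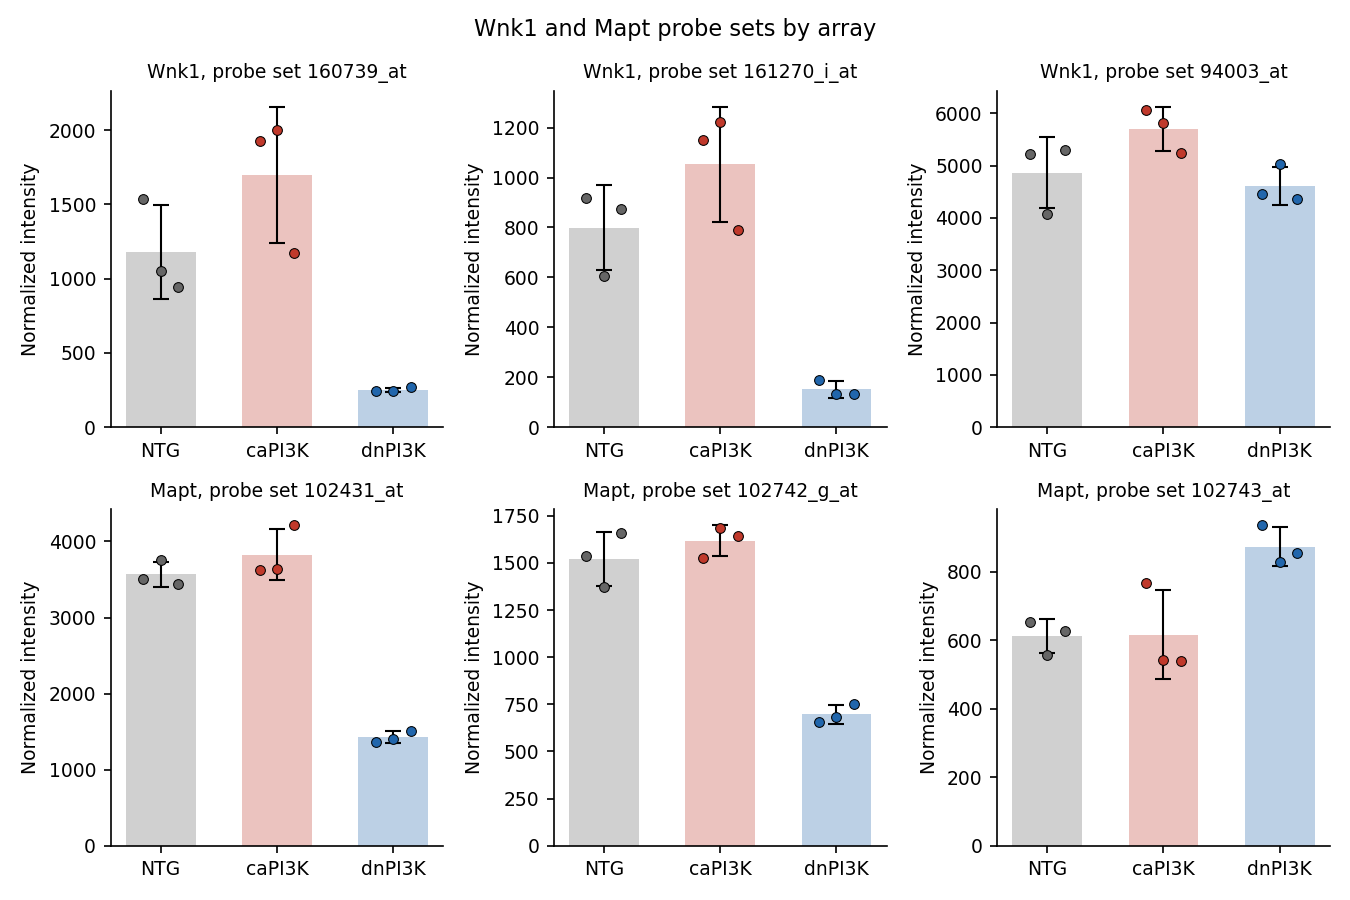
Normalized intensity (vertical axes, linear from 0, a scale of its own for each probe set) of the 3 Wnk1 and the 3 Mapt probe sets by group; points are arrays, bars group means and error bars SD (n = 3). On the first and second panel of each row the 3 dnPI3K arrays lie below all other arrays; on Wnk1 94003_at they overlap the NTG arrays, and on Mapt 102743_at, with a mean of 874 against 613, they lie above them.

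Of the 3 Mapt probe sets, 102431_at and 102742_g_at were designed from the same GenBank record, and 102743_at from another. Probe sets 102431_at and 102742_g_at therefore share their source sequence and are no independent measures of it. On 102431_at the NTG arrays read 3504, 3758 and 3442, the caPI3K arrays 3627, 3641 and 4216 and the dnPI3K arrays 1357, 1402 and 1513. The dnPI3K arrays lay close together and below every other array. On 102742_g_at the NTG arrays read 1538, 1372 and 1658, the caPI3K arrays 1524, 1684 and 1645 and the dnPI3K arrays 657, 681 and 751. The suffix g marks oligonucleotides shared within a group of sequences, and the groups fell out as on 102431_at. On 102743_at the NTG arrays read 653, 557 and 628, the caPI3K arrays 766, 542 and 539 and the dnPI3K arrays 936, 829 and 855. On this probe set all dnPI3K arrays lay above all others.

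The Mapt group means followed 2 orders. On 102431_at they were 3828 ± 336 in caPI3K, 3568 ± 167 in NTG and 1424 ± 80 in dnPI3K, and dnPI3K differed from NTG by -1.33 ± 0.0911 on the log2 scale (2.51-fold lower). On 102742_g_at they were 1618 ± 83.2, 1522 ± 144 and 696 ± 48.4, a difference of -1.13 ± 0.107 (2.18-fold lower). In both, caPI3K and NTG differed by less than the larger of their SDs. On 102743_at dnPI3K came first with 874 ± 56, followed by caPI3K (616 ± 130) and NTG (613 ± 49.7), whose difference lay within their spread. The dnPI3K minus NTG difference on it was 0.51 ± 0.154, or 1.43-fold higher. Among all probe sets tested, 0.827% had a difference as low as that of 102431_at or lower, 1.47% as low as that of 102742_g_at, and 8.92% one as high as that of 102743_at or higher.

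In limma's fit with Benjamini-Hochberg adjustment over all 10645 probe sets, 2.18% passed an adjusted p of 0.05 for dnPI3K against NTG, 1.01% higher and 1.16% lower. The members that passed were 2 of 3 for each gene, all lower, which the choice of the genes had fixed. The groups did not overlap, with dnPI3K lower, for 8.97% of all probe sets and for 4 of these 6. With dnPI3K higher they did not overlap for 9.75% and for 1 of the 6.

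Ratios of 2 probe sets of the same gene, taken within each array and set to 0 at the NTG mean, leave out anything that scales both signals on an array alike. For Wnk1, the log2 ratio of 160739_at to 94003_at was -2.12, -2.29 and -1.95 on the dnPI3K arrays, 0.42, 0.53 and -0.09 on the caPI3K arrays and 0.31, 0.11 and -0.42 on the NTG arrays. That of 161270_i_at to 94003_at was -1.94, -2.62 and -2.44 in dnPI3K, 0.22, 0.37 and -0.11 in caPI3K and within -0.13 to 0.11 in NTG. All 3 dnPI3K arrays thus stood apart from the other 6 in both ratios, whereas the ratio of 160739_at to 161270_i_at overlapped across the groups (means 0.21 ± 0.347 in dnPI3K and 0.12 ± 0.0964 in caPI3K).

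For Mapt the same split appeared between the 2 source records. The log2 ratio of 102431_at to 102743_at was -2.01, -1.79 and -1.72 on dnPI3K arrays, -0.30, 0.20 and 0.42 on caPI3K arrays and -0.12, 0.21 and -0.09 on NTG arrays. With 102742_g_at in place of 102431_at it was -1.82, -1.59 and -1.50 on dnPI3K arrays, and -0.32 to 0.32 on the other 6. The ratio between 102431_at and 102742_g_at, from the same record, was -0.19, -0.19 and -0.22 on dnPI3K arrays, all just below the lowest NTG value of -0.18. On caPI3K arrays it was 0.02, -0.12 and 0.13, so the dnPI3K arrays were lowest here too, by a far smaller margin. These ratios describe unequal change and do not compare the levels of the probe sets.

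**Figure D2:**
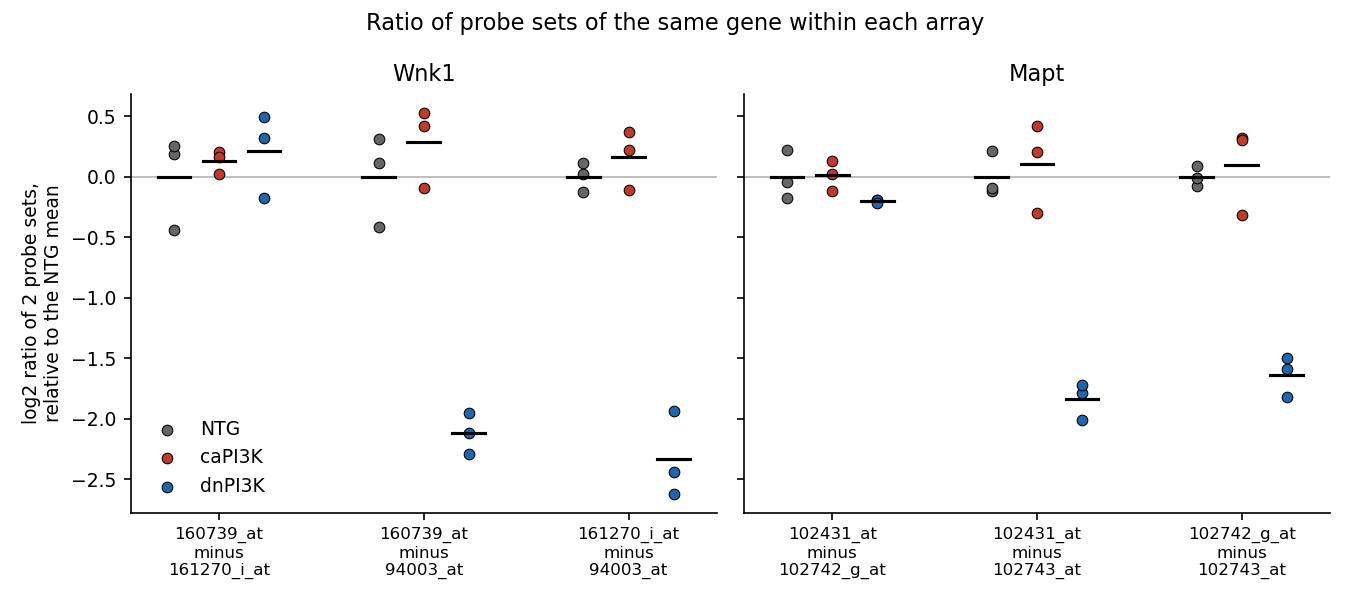
The log2 ratio of each pair of probe sets of Wnk1 (left) and Mapt (right) within each array, relative to its NTG mean; points are arrays and lines group means (n = 3). Ratios to Wnk1 94003_at lie between -2.62 and -1.94 and those to Mapt 102743_at between -2.01 and -1.50 on the dnPI3K arrays, while those of the remaining pair of each gene lie between -0.22 and 0.49.

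The caPI3K arrays against NTG give the comparison that the choice of the genes did not use. Groups overlapped on all 6 probe sets, where 6.32% of all probe sets had every caPI3K array above and 5.37% every caPI3K array below the NTG arrays. Of the 6, 0 passed the test (limma, adjusted over all probe sets), where 0.0845% of all probe sets did, and 1 of 6 had an unadjusted p under 0.05, where 6.9% of all did. That one was Wnk1 160739_at, with a log2 difference of 0.52 ± 0.225 (95% interval 0.03 to 1.02, adjusted p = 0.705) and 2 of 3 caPI3K arrays above every NTG array. Wnk1 161270_i_at was at 0.40 ± 0.230 (-0.11 to 0.91, adjusted p = 0.783) and 94003_at at 0.24 ± 0.114 (-0.02 to 0.49, adjusted p = 0.728). All 3 Wnk1 means were thus higher in caPI3K than in NTG, with overlapping arrays. The Mapt differences were 0.10 ± 0.0911 (-0.10 to 0.30, adjusted p = 0.863) on 102431_at, 0.09 ± 0.107 (-0.15 to 0.33, adjusted p = 0.892) on 102742_g_at and -0.01 ± 0.154 (-0.35 to 0.33, adjusted p = 0.994) on 102743_at. Each interval for Mapt leaves out a change as large as the 2.18-fold fall on dnPI3K arrays, a fall by which the gene was chosen. The sign of the last difference turned without caPI3K replicate 2 or 3, without NTG replicate 1 or 3 and with arrays scaled to the same median, over a range of -0.18 to 0.08.

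The animal numbers in the titles run in separate series. The caPI3K and NTG mice share those from 2800 (2 arrays a group) and from 3100 (1 a group), and the numbers of the dnPI3K mice lie outside both. In the former 2 series the caPI3K minus NTG log2 difference was 0.63 and 0.31 for Wnk1 160739_at, 0.67 and -0.14 for 161270_i_at and 0.36 and -0.02 for 94003_at. The higher Wnk1 values of the caPI3K group therefore held in both series for 1 of the 3 probe sets. For Mapt the differences were 0.00 and 0.29 on 102431_at, 0.14 and -0.01 on 102742_g_at and 0.09 and -0.22 on 102743_at. The dnPI3K transgene and the number series cannot be told apart, since no control animal has a number near those of the dnPI3K mice.

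Whether the probe sets of a gene changed unequally in caPI3K hearts was tested with limma on each probe set minus the mean of the other probe sets of its gene, over 3544 probe sets of 1608 genes. None of the 6 passed, 0 of all 3544 passed (0%), and 6.77% had an unadjusted p under 0.05 but none of these 6. The unequal part was between -0.22 ± 0.242 (94003_at, 95% interval -0.77 to 0.32, adjusted p = 0.946) and 0.21 ± 0.262 (160739_at, -0.39 to 0.80, adjusted p = 0.961) for Wnk1. For Mapt it was between -0.11 ± 0.246 (102743_at, -0.66 to 0.45, adjusted p = 0.971) and 0.06 ± 0.210 (102431_at, -0.41 to 0.53, adjusted p = 0.989). By the same measure the dnPI3K minus NTG value was 2.23 for Wnk1 94003_at and 1.74 for Mapt 102743_at, sizes that the intervals for caPI3K leave out. Both values belong to the dnPI3K pattern that chose the genes, so this contrast is a description.

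Set against each other, the transgenic groups differed more than either did from NTG on the probe sets that were low in dnPI3K. The caPI3K minus dnPI3K log2 difference was 2.71 ± 0.225 and 2.80 ± 0.230 on Wnk1 160739_at and 161270_i_at and 0.31 ± 0.114 on 94003_at. On Mapt it was 1.42 ± 0.0911 and 1.22 ± 0.107 on 102431_at and 102742_g_at and -0.52 ± 0.154 on 102743_at. In this comparison 3.24% of all probe sets passed. The groups did not overlap on any of the 6, with caPI3K higher on 5 (11.2% of all probe sets) and lower on 1 (12.1%). These values use the dnPI3K arrays that chose the genes and are a description.

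Other genes too had probe sets with unequal results. Of the 1608 genes with at least 2 tested probe sets, 83 had 1 or more past the threshold for dnPI3K against NTG, and in 78 of the 83 other probe sets of the gene did not pass. A probe set short of the threshold need not differ from one past it. In the test of unequal change within genes, 6 of 3544 probe sets, the members included in the 3544, passed for dnPI3K against NTG. That count changed with the settings. The spread between the highest and the lowest log2 difference of a gene had a median of 0.38 and a 95th percentile of 1.30. It was 2.33 for Wnk1, the rank 7 among all genes and 3 among the 265 genes with at least 3 probe sets, and 1.84 for Mapt, ranks 21 and 10. Spreads as wide were seen in 0.435% of genes for Wnk1 and 1.31% for Mapt. These ranks and shares describe the dnPI3K pattern by which the genes were chosen and are no support for it. For caPI3K against NTG, which shares the NTG arrays, the spread was 0.29 for Wnk1 and 0.11 for Mapt, as wide as in 51.9% and 79.2% of genes, where the median was 0.30.

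**Figure D3:**
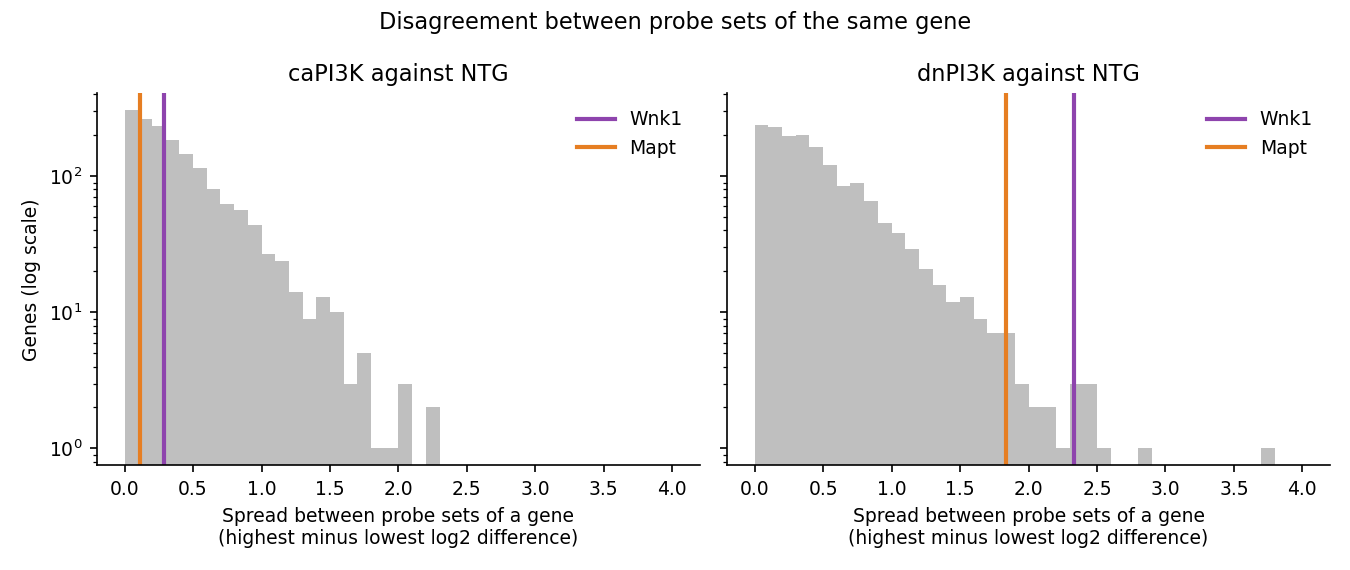
Spread between the probe sets of a gene (horizontal axis, highest minus lowest log2 difference from NTG) over 1608 genes with 2 or more tested probe sets (vertical axis, number of genes on a log scale), with Wnk1 and Mapt marked. Both genes lie in the bulk for caPI3K (0.29 and 0.11) and in the upper tail for dnPI3K (2.33 and 1.84), the pattern by which they were chosen.

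Of the 5 widest genes for dnPI3K against NTG, all but Tbc1d10a had at least 1 array of a probe set on the floor. Myl4, an atrial myosin light chain, fell on both of its probe sets, with log2 differences of -5.48 ± 1.15 (adjusted p = 0.04) and -1.73 ± 0.291 (adjusted p = 0.0144). The latter call was lost without dnPI3K replicate 2 (-1.69, adjusted p = 0.0628) or 3 (-1.70, adjusted p = 0.054) and without NTG replicate 2 (-1.57, adjusted p = 0.0569). Crhr2, a urocortin receptor, had a probe set at -2.67 ± 0.487 (adjusted p = 0.0216), on the floor on all 3 dnPI3K arrays, and another at 0.19 ± 0.401. The interferon gene Ifna4 was at 1.34 and -1.23, each with a group on the floor, and Sbno1 was at -1.53, 0.31 and 0.95, with no probe set of Ifna4 or Sbno1 past the threshold. Tbc1d10a had one probe set at 3.40 ± 0.609 (adjusted p = 0.0194) and another at 0.95 ± 0.430. Its call was lost without dnPI3K replicate 1 (3.11, adjusted p = 0.0677) or 2 (3.34, adjusted p = 0.0787). That of Crhr2 was lost without any one dnPI3K array (adjusted p of 0.0616, 0.0783 and 0.0683 for replicates 1 to 3) and without NTG replicate 1 (0.0533) or 2 (0.0776), at differences of -2.72 to -2.58. By contrast, no array of Wnk1 or Mapt lay on the floor of 35.34.

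Among the 265 genes with at least 3 probe sets, 4 had 2 or more past the threshold for dnPI3K against NTG, namely Wnk1, Mapt, Mark2 and Mef2c. For Wnk1 and Mapt the choice of the genes had fixed this. Mef2c, which encodes a transcription factor of muscle and was singled out after its values were seen, had 3 low probe sets, at -1.62 ± 0.298 (adjusted p = 0.0228), -1.23 ± 0.183 (adjusted p = 0.00752) and -1.13 ± 0.288 (adjusted p = 0.0811), and another at 0.08 ± 0.2. The call at -1.23 held without each array in turn, and that at -1.62 was lost without dnPI3K replicate 1 (-1.34, adjusted p = 0.0552) or 3 (-1.52, adjusted p = 0.0777) and without NTG replicate 1 (-1.62, adjusted p = 0.0599) or 2 (-1.48, adjusted p = 0.087). Mark2, a kinase that phosphorylates tau in its microtubule-binding repeats, rose on 99458_i_at from 1229 ± 169 to 2268 ± 278 (log2 difference 0.88 ± 0.120, adjusted p = 0.00563). It also rose on 99459_f_at, by 1.68 ± 0.322 (adjusted p = 0.0275), from 49.1 ± 4.83 to 163 ± 54, a probe set whose suffix marks sequence shared within a family. On its remaining probe set, 104244_at, it was at -0.25 ± 0.213. The call on 99458_i_at held without each array in turn. That on 99459_f_at was lost without dnPI3K replicate 2 (1.66, adjusted p = 0.1) or 3 (1.44, adjusted p = 0.0926) and without NTG replicate 1 (1.70, adjusted p = 0.0692), 2 (1.75, adjusted p = 0.0654) or 3 (1.60, adjusted p = 0.061).

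Genes that act with Wnk1 or with tau were taken from lists, each gene by its probe set of highest mean, and their counts read against the 2.19% of 7484 genes that passed for dnPI3K against NTG and the 14.9% with an unadjusted p under 0.05 (14.8% of all probe sets). Of 20 measured genes of Wnk1 signalling (WNK kinases, their substrates and regulators, and ion transporters), 1 rose and 0 fell. An unadjusted p under 0.05 (limma) was found for 6 of the 20, a larger share than over all genes. The median log2 difference of the 20 was 0.09 against 0.01 over all genes. The one that rose was Akt2, from 1158 ± 82.8 to 1727 ± 245 (0.57 ± 0.117, adjusted p = 0.0352). Next came the potassium chloride cotransporter Slc12a4 (0.70 ± 0.168, adjusted p = 0.0644) and Akt1 (0.58 ± 0.171, adjusted p = 0.124), which did not pass. The call for Akt2 was lost without any one array except dnPI3K replicate 3. Its adjusted p was 0.0554, 0.0612 and 0.0565 without caPI3K replicate 1, 2 and 3, 0.0987 and 0.138 without dnPI3K replicate 1 and 2, and 0.108, 0.0634 and 0.0621 without NTG replicate 1, 2 and 3, at differences of 0.48 to 0.62.

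Of 26 kinases and phosphatases that act on tau, 1 rose (Mark2) and 0 fell, with a median of 0.06. An unadjusted p under 0.05 (limma) was found for 6 of the 26, a larger share than the 14.9% over all genes. The kinase Mapk8 was at -0.38 ± 0.126 (adjusted p = 0.184) and the phosphatase Ppp5c at 0.87 ± 0.314 (adjusted p = 0.218). Of 20 microtubule-associated proteins and motors 0 passed (limma, 3 with an unadjusted p under 0.05, near the share over all genes), with Map1lc3a at -0.30 ± 0.0883 (adjusted p = 0.124), the dynactin subunit Dctn1 at 0.52 ± 0.171 and the kinesin Kif5b at -0.58 ± 0.218. Of 12 tubulins 0 passed (1 with an unadjusted p under 0.05), with Tuba1c at 0.54 ± 0.184, Tubb5 at 0.30 ± 0.160 and Tubb3 at 0.29 ± 0.185. Suffixes on the tubulin probe sets mark sequence shared within the family for Tuba1c and Tubb3, and tubulin genes are near-identical, so these values are uncertain for single genes. The medians were -0.03 and 0.05.

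Splicing regulators were listed since both genes have several transcript forms. Of 32 measured 0 passed for dnPI3K against NTG (limma, 6 with an unadjusted p under 0.05, against 14.9% of all genes) and the median was 0.11. Celf1 was at 1.59 ± 0.542 (adjusted p = 0.193), a probe set on which 2 NTG arrays lay on the floor, and at -0.28 on another. The splicing factor Srsf2 was at 0.35 ± 0.124 and 0.06 on a pair of probe sets, and Qk at -0.32 ± 0.118 and -0.27. For caPI3K against NTG, where 0.107% of genes passed and 7.2% had an unadjusted p under 0.05, 0 genes of any of these 5 lists did, and those with an unadjusted p under 0.05 were 4 for Wnk1 signalling, 1 for tau kinases and phosphatases, 1 for microtubule-associated proteins, 0 for tubulins and 2 for splicing regulators.

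The measured neighbours of both genes on their chromosomes were read beside them. Whether a stretch of chromosome moved as a whole was not tested. For Wnk1, the 10 nearest genes with a tested probe set on each side had a median log2 difference of 0.17 for dnPI3K against NTG. The median over all genes was 0.01. Of the 20 neighbours, 15 were above 0 and 4 had an unadjusted p under 0.05 (limma), where 14.9% of all genes did. After adjustment 1 of 20 passed, where 2.19% of all genes did. This was Adipor2, a receptor for adiponectin, which rose by 0.68 ± 0.136 (adjusted p = 0.0336). The immediate neighbours Rad52, a DNA repair gene, and Il17ra, an interleukin receptor gene, were at -0.10 ± 0.205 and 0.26 ± 0.214. The call for Adipor2 was lost without caPI3K replicate 1 (0.68, adjusted p = 0.0508), dnPI3K replicate 2 (0.59, adjusted p = 0.131), dnPI3K replicate 3 (0.65, adjusted p = 0.106), NTG replicate 2 (0.62, adjusted p = 0.11) or NTG replicate 3 (0.68, adjusted p = 0.061). None of the 20 moved as far as Wnk1 160739_at and 161270_i_at did, but those falls chose the gene. Of all probe sets tested, only 0.0939% and 0.0752% were as low or lower, so few sets of 20 genes would hold one.

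For Mapt, 1 of 20 neighbours passed for dnPI3K against NTG, the next measured gene on one side, Myl4, whose values differed widely within groups (NTG mean 3596 ± 3337). Its call on 160487_at was kept without caPI3K replicate 3 or NTG replicate 3 and lost without any other array, at differences of -5.64 to -4.51 with adjusted p-values of 0.0567 and 0.054 (caPI3K replicate 1 and 2 left out), 0.101, 0.115 and 0.11 (dnPI3K replicate 1, 2 and 3) and 0.11 and 0.131 (NTG replicate 1 and 2). On its other side Crhr1, a receptor for corticotropin-releasing hormone, was at -0.32 ± 0.404. The other 18 lay between -0.60 (Wnt3) and 1.07 (Gjc1), and the median of all 20 was 0.11, against 0.01 over all genes. Of these 20, 4 had an unadjusted p under 0.05 (limma), where 14.9% of all genes did and 2.19% passed. For caPI3K against NTG 0 neighbours of either gene passed, where 0.107% of all genes did. There 1 of 20 around Wnk1 and 2 of 20 around Mapt had an unadjusted p under 0.05, where 7.2% of all genes did.

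**Figure D4:**
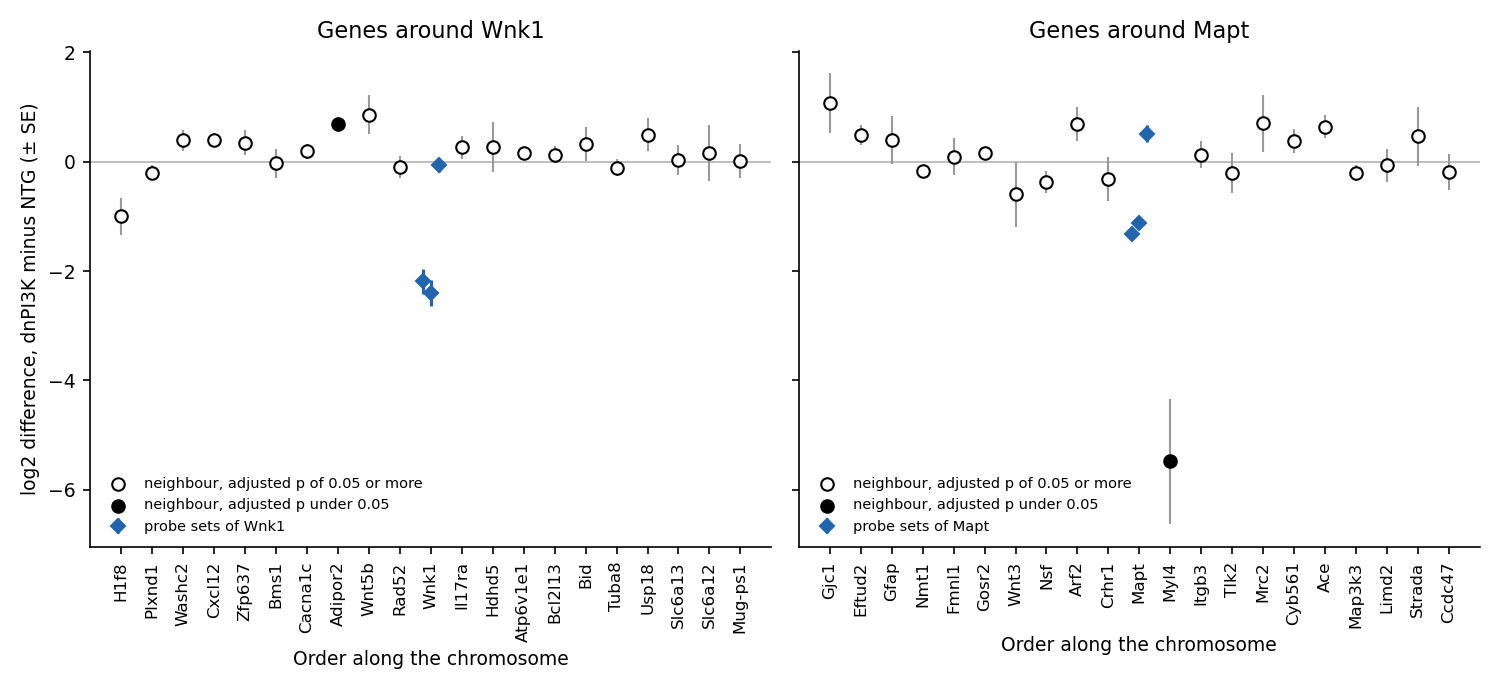
The dnPI3K minus NTG log2 difference (vertical axis, ± SE) of the 10 nearest genes with a tested probe set on each side of Wnk1 (left) and Mapt (right), in order along the chromosome and not to scale; diamonds are the probe sets of Wnk1 and Mapt. Apart from Adipor2 (0.68) and Myl4 (-5.48), the neighbours did not pass the test.

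The genes whose pattern over the 9 arrays was most like that of a low probe set were found by the mean absolute difference of log2 values centred on each probe set's mean, a description since the dnPI3K arrays that chose the genes take part in it. For Wnk1 160739_at they were Myl1 (0.309), the argonaute gene Ago2 (0.328) and Gdap10 (0.348), and for 161270_i_at Myl1 (0.302), Gdap10 (0.315) and Akap9 (0.385). The 2 Wnk1 probe sets lay closer to each other (0.209), and 94003_at was at 1.01 and 1.07 from them. Myl1, a light chain of fast skeletal muscle myosin, read 6977, 4690 and 3158 on NTG arrays, 9234, 13610 and 9917 on caPI3K arrays and 1349, 1011 and 1132 on dnPI3K arrays. Ago2 read 933, 692 and 529 on NTG arrays, 965, 982 and 509 on caPI3K arrays and 197, 232 and 237 on dnPI3K arrays. Within the NTG group both were highest on replicate 1, as was Wnk1 160739_at, while Gdap10 read 1422, 1775 and 1502 there, highest on replicate 2.

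For Mapt 102431_at the nearest genes were Atp7a, a copper transporter (0.116), Apbb2, an adaptor that binds the amyloid precursor protein (0.129), and Rbm39, a splicing factor (0.151), with the other low Mapt probe set at 0.128. For 102742_g_at they were the growth factor Hbegf (0.137), the transcription factor Nfatc3 (0.142) and Tcf25 (0.146). These 6 genes had dnPI3K minus NTG differences of -1.52 to -0.88 on the log2 scale. The low probe sets of Wnk1 lay at 0.527 to 0.635 from those of Mapt, so the patterns of Wnk1 and Mapt were less alike than either was to the genes named.

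Several signals that bear on the dnPI3K arrays as a whole moved with these falls. A control for 18S rRNA near its 3′ end read 8567, 3265 and 6840 on dnPI3K arrays and 451 to 671 on the other 6. Spike-in controls had a geometric mean of 1790 ± 212 for dnPI3K, against 2988 ± 369 for NTG and 3023 ± 272 for caPI3K. For Actb, the 3′/5′ control ratio, which rises as RNA is degraded, was 1.34 ± 0.00644 for dnPI3K against 1.22 ± 0.0734 for NTG and 1.11 ± 0.0724 for caPI3K. That of Gapdh was 0.808 ± 0.0243, 0.853 ± 0.0250 and 0.836 ± 0.0185 in the same order. The part of these signals in the results for Wnk1 and Mapt was not tested.

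Markers of other cell types were counted because fewer cells of a type and less RNA per cell cannot be told apart in whole ventricle. The heart muscle markers identified the tissue, with summed intensities of 234500 to 261300 over 9 genes on the NTG arrays and 239900 to 254800 on dnPI3K arrays, and 1 of 9 rose, where 2.19% of all genes passed in either direction. Of 9 markers of skeletal muscle, 2 fell and 8 were below 0 for dnPI3K against NTG, and their summed intensity ranged over 11320 to 14220 for NTG, 17690 to 24150 for caPI3K and 5370 to 6641 for dnPI3K. Myl1, one of the 9, had a mean of 4942 ± 1922 in NTG, 10920 ± 2352 in caPI3K and 1164 ± 171 in dnPI3K. For caPI3K against NTG, 4 of the 9 genes were above 0 and 5 below, with a median of -0.15, and 0 passed (limma, 2 with an unadjusted p under 0.05). Of 7 atrial markers 2 fell, with sums of 2715 to 22270 in NTG and 9285 to 12030 in dnPI3K. Of 11 neuron markers, listed since tau is abundant in nerve cells, 0 passed (limma, 1 with an unadjusted p under 0.05), with sums of 2910 to 3433 in NTG, 2732 to 3063 in caPI3K and 2858 to 3807 in dnPI3K. The array holds 12 of the listed skeletal muscle and 16 of the listed neuron markers. Those not among the 9 and 11 were left out because they were not above the floor on at least 3 arrays. None of the 9 skeletal muscle or 11 neuron genes that passed this filter lay on the floor on all arrays of a group. The part of these cell types in the results was not tested.

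Among the remaining marker lists, 1 of 5 smooth muscle genes rose for dnPI3K against NTG, where 2.19% of all genes passed in either direction. Of 8 Schwann cell and glial, 7 endothelial, 6 fibroblast, 7 leukocyte and 6 kidney tubule genes 0 passed (limma), and 1, 0, 2, 0 and 1 of them had an unadjusted p under 0.05. For caPI3K against NTG 0 genes of any marker list passed.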

How the data were processed

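The deposited table holds 1 intensity per probe set and array, on a linear scale. The sources used here do not give how the authors computed them. Trimming 2% at each end gave a mean of 500.4 on all 9 arrays (medians 174.8 to 193.9), so a common scaling preceded deposit. The labels name a scanner photomultiplier (PMT) setting of 10%. Groups were read from the titles, and replicates are numbered in accession order, which pairs no animals.

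After quantile normalization, values under the 20th percentile (35.34) were set to it, the floor, before log2 was taken. Probe sets above the floor on at least 3 of 9 arrays were tested, without the 66 array controls. Means and SD are of normalized intensities before the floor. Group differences came from 1 fit of all 9 arrays with limma 3.58.1 in R 4.3.3 (intensity trend, 6 residual degrees of freedom before moderation), two-sided, with Benjamini-Hochberg adjustment over all probe sets tested and a threshold of 0.05. The number of arrays limits the precision. The fits were tested on simulated data.

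Symbols come from the platform annotation, which gives 1 symbol to 10855 probe sets, several to 396 and none here to 1237; 10839 were matched to a RefSeq table (GRCm38.p6), used also for the order of genes and for the promoter window. The members and lists were chosen with earlier results of these data known. The named genes are, besides all members, list genes and chromosomal neighbours past the threshold, the 3 of smallest p for dnPI3K against NTG in each pathway list, the 3 nearest in pattern to each low probe set and the 5 of widest spread. Left-out values of Crhr2, Tbc1d10a and Mef2c were added after their results were seen. Alternatives were 11 other settings and each array left out in turn.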

Additional observations from a re-analysis of the deposited data

Results flagged for a closer look

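The array control near the 3′ end of 18S rRNA, which enters no comparison, averaged 6224 ± 2704 on the dnPI3K arrays (SD, n = 3), against 536 ± 118 on NTG and 520 ± 38.1 on caPI3K arrays. It was singled out as a signal outside the main measurement that lay above its level in the control samples. The same 3 arrays carry the low Wnk1 and Mapt probe sets, and a relation between them was not tested.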

How the results depend on the processing

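No paired analysis was possible because replicate numbers follow accession order and pair no animals. The series of animal numbers that caPI3K and NTG mice share could be used as a block, and with it 8 probe sets passed in place of 9 and none of the 6 members did. Counts of probe sets past the threshold moved by over 1.5 times as follows. For caPI3K against NTG (9) the count was 1 with no filter or no intensity trend, 0 with only the 2 groups compared, and 0 to 20 without 1 array (20 without NTG replicate 1). For dnPI3K against NTG (232) it was 138 with no filter, 94 with no trend or only 2 groups, and 82 to 235 without 1 array; scaling arrays to a common median split it into 135 higher and 93 lower, in place of 108 and 124. For caPI3K against dnPI3K (345) it was 219 with no filter, 151 with no trend, 527 with array weights and 134 to 435 without 1 array. Within-gene differences past the threshold were 0 for caPI3K against NTG, but 2 with no filter. For dnPI3K against NTG (6) they were 0 with the floor at the 5th percentile or only 2 groups, 48 with it at the 40th, 10 with no filter, 69 above the median and 0 to 11 without 1 array, while for caPI3K against dnPI3K (8) they were 1 with the floor at the 5th percentile, 58 with it at the 40th, 15 with no filter, 59 above the median and 0 to 10 without 1 array. The Wnk1 signalling count (1) was 2 with median scaling, above the median or with array weights, 0 with no filter, no trend or only 2 groups, and 0 to 2 without 1 array. The neighbours of Wnk1 past the threshold (1) were 0 with no filter, no trend or only 2 groups, and those of Mapt (1) also with the floor at the 40th percentile or robust moderation, and both 0 to 1 without 1 array. The cause was not tested.

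Over 19 alternatives the dnPI3K minus NTG difference was -2.34 to -1.98 for Wnk1 160739_at, -2.60 to -2.30 for 161270_i_at, -0.193 to 0.0488 for 94003_at (above 0 with median scaling), -1.37 to -1.19 for Mapt 102431_at, -1.20 to -1.04 for 102742_g_at and 0.448 to 0.585 for 102743_at. None of the 6 passed for caPI3K against NTG under any of 20 alternatives. Signs turned there for Mapt 102743_at with median scaling (0.0552) and without 1 array (-0.178 to 0.0762). The within-gene value of Wnk1 161270_i_at turned with the deposited values or median scaling (-0.0311 in both) and without 1 array (-0.0751 to 0.136). Those of Wnk1 160739_at (-0.00963 to 0.332) and Mapt 102431_at (-0.0479 to 0.166), 102742_g_at (-0.0419 to 0.152) and 102743_at (-0.312 to 0.0232) turned only without 1 array. All 6 members lay above the floor on every array, but the floor is a percentile of all intensities and no measure of background. The part of background in low readings, such as 131 to 188 for Wnk1 161270_i_at on dnPI3K arrays, was not tested.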
